A study of Mus musculus with 6 samples.

Results

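The genes described here are 9 that build or orient the tight junction, the belt that seals neighbouring epithelial cells together: Ocln, Marveld2, Marveld3 and F11r for membrane proteins, Tjp1, Tjp3 and Cgn for scaffolds, and Pard3 and Crb3 for polarity proteins. They were taken by name, as all probe sets (the groups of short probes that report 1 transcript on an Affymetrix array) whose only gene symbol in the platform table is that of a member. This gave 19 probe sets for the 9 genes, among 45037 probe sets tested and 18193 genes with a name of their own. The arrays measured total RNA from whole livers of mouse fetuses at E18.5, shortly before birth. The 3 control livers carried the genotype written HNF4LoxP/+AlfpCre, with 1 Hnf4 allele flanked by loxP sites (the target sites of Cre recombinase), and the 3 null livers carried HNF4LoxP/LoxP AlfpCre, with both alleles flanked, so the AlfpCre transgene and at least 1 flanked allele were common to all 6 animals. AlfpCre places Cre under albumin and alpha-fetoprotein control elements, which are active in the hepatocyte lineage. Whether Cre acted in other liver cells, bile duct cells among them, was not measured here. By group and title number, the arrays are Control_8, Control_1192 and Control_1193 on one side, against Null_61, Null_1191 and Null_1195. The comparison asks how the liver transcriptome differs where HNF4 alpha, a nuclear receptor that switches on many hepatocyte genes, is meant to be missing.

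In the liver, tight junctions between hepatocytes close off the bile canaliculus, the narrow channel into which bile is secreted, from the blood side of the cell. Claudins form the paracellular strands of the junction. Occludin, tricellulin (the Marveld2 product, found where 3 cells meet) and the Marveld3 protein share a MARVEL membrane domain and lie in or along those strands, and the zonula occludens scaffolds tie the strands to actin. The Par complex, with the Pard3 product, and the Crumbs complex, with that of Crb3, mark out the apical side of the cell and help place the junction at its edge.

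The letters before the transcription starts of the members are shown for those whose signal fell on at least 1 probe set and for Tjp3, the member with a match to an HNF4-like motif. RefSeq's table for GRCm38.p6 holds promoters for 8 of the 9 members, and Marveld3 has no entry in it. Each run ends at the base before the outermost listed start and reaches back at most 250 bases, or as far as the edge of the next gene, and is written 5′ to 3′ on the strand of the gene. Ocln lies at chr13:100552719-100552968 (minus strand), Marveld2 at chr13:100616972-100617163 (minus), F11r at chr1:171437323-171437560 (plus), Crb3 at chr17:57061951-57062200 (plus) and Tjp3 at chr10:81291582-81291831 (minus). Capitals mark matches to the motifs CAAAGNNCA and CACCTG on either strand.
Ocln: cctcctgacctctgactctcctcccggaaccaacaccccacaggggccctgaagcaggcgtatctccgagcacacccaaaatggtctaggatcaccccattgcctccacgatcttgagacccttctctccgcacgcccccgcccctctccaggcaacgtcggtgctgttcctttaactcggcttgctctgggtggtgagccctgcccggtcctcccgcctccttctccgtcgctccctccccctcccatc
Marveld2: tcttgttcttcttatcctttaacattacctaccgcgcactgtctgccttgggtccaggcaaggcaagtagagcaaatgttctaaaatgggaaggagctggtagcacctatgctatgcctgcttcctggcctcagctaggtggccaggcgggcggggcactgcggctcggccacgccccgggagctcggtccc
F11r: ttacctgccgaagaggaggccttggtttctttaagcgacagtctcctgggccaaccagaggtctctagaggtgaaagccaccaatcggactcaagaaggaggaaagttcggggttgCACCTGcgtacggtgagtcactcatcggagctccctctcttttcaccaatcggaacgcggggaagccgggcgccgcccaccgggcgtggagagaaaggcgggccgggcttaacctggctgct
Crb3: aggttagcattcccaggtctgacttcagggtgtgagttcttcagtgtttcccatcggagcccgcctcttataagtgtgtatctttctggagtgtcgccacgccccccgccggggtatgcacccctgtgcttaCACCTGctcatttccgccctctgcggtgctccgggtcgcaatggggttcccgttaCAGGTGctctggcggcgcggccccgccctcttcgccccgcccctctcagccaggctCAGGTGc
Tjp3: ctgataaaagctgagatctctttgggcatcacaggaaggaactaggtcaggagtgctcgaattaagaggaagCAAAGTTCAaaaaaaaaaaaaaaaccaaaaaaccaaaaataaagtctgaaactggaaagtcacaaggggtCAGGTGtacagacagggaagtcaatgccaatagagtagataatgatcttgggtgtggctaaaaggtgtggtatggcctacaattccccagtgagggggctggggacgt

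3 motifs were searched on both strands: CAAAGTCCA, a strong binding sequence of HNF4 alpha, CAAAGNNCA, a looser form that includes it, and CACCTG, the E-box that repressors of the Snail family bind. CAAAGTCCA is in none of the 8 member promoters, and 0.384% of all 32851 promoter windows of 250 bases hold it. CAAAGNNCA occurs once, as CAAAGTTCA, 178 bases before the start of Tjp3, and 5.49% of all windows hold it. The E-box is in the runs of F11r (122 bases before the start), Tjp3 (108 bases) and Crb3 (118, 63 and 7 bases), and 17.2% of all windows hold it. The runs of Ocln and Marveld2 have none. The windows of second listed starts, which are not printed, add the E-box at 213 and 68 bases before that of Ocln, 17 before that of Tjp3 and 220, 203 and 166 before that of Pard3. Such matches describe letters only, and no binding was measured.

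Signal fell in the null livers on 5 of the 19 member probe sets (26.3%, against 5.55% of all probe sets) and rose on 0 of them (1.46% of all probe sets rose). By gene, each represented by its brightest probe set, Ocln, Marveld2 and F11r fell, 3 of 9 against 7.85% of all genes, 0 rose against 1.56% of all genes, and Crb3 fell on 1 of its 3 probe sets. The 3 scaffold genes and Pard3 did not pass the test on any probe set. The members were chosen with earlier results of these data known, so these shares are a description and not an independent test. A call is an adjusted p under 0.05 in limma, adjusted over all 45037 probe sets. Changes are null minus control of log2(intensity + 32), a scale on which the change of dim probe sets is understated. The median change over the 19 probe sets was -0.084, beside 0.033 over all probe sets. With 3 arrays a group their number limits the precision, and an exact permutation test of 3 against 3 cannot go below a two-sided p of 0.1. Nothing in the labels says whether the livers came from separate litters, and p-values reflect only how these arrays vary. Whole livers were hybridised, so fewer cells of a type and less RNA per cell cannot be told apart.

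**Figure D1:**
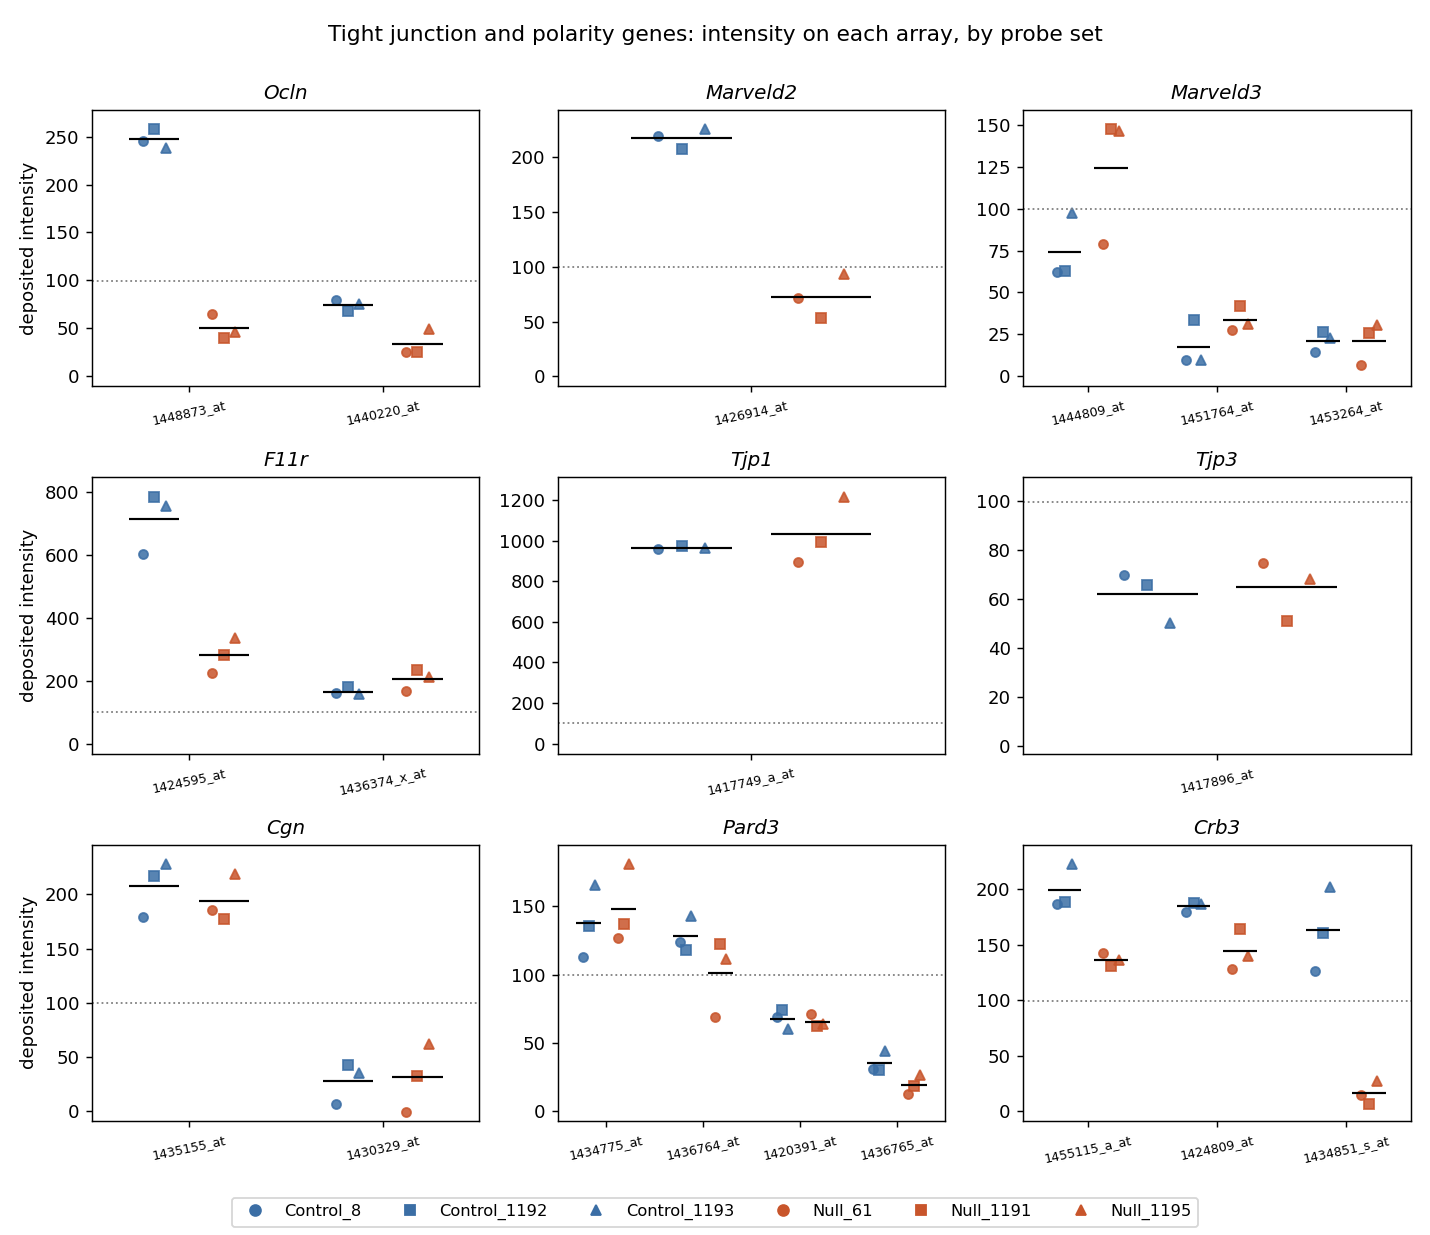
Deposited intensity (linear, arbitrary units) of every member probe set on each array. Points are single arrays, with blue for control and orange for null and the symbol shape for the array in the key, short black lines are group means of 3, and the dotted line is 99.6, the highest of the 6 array medians. The nulls lie far below the controls in Ocln 1448873_at, Marveld2 1426914_at, F11r 1424595_at and Crb3 1434851_s_at, and overlap them in Tjp1, Tjp3 and Cgn.

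On the series as a whole, array medians ran from 91.8 to 99.6 and the 4 Hnf4a probe sets retained much of their signal in the nulls. 1421983_s_at fell from 1155 ± 40.6 to 718 ± 166 (SD, n = 3; adjusted p = 0.0434) and 1450447_at from 517 ± 22.9 to 346 ± 60.9 (adjusted p = 0.0488), while 1427000_at and 1427001_s_at were not called (adjusted p = 0.0785 and 0.194). These calls were lost in 9 and 10 of 16 alternatives. The labels do not say where these probe sets sit relative to the loxP sites, so Hnf4a checks the group labels only in part. Control_8 and Null_61 belong to another run of title numbers, and their 5′ 18S rRNA control probe set read 42.1 and 33.5 against 449 to 616 in the other arrays; the labels do not call this a batch. By Xist and Y-linked signal, Control_8 was female and the other controls male, whereas Null_61 was male and the other nulls female. The hepatocyte transcripts Alb and Afp were near the top of the range in all livers, as the tissue label says, at group means of 10532 and 11969 in the controls, against 10651 and 11463 in the nulls. The highest values of the arrays were 12298.5 to 12608.4, so little room is left above these means. They do not show that hepatocyte content was equal. Of the 5 hepatocyte markers measured, Ttr, Krt8 and Krt18 fell, where 7.85% of all genes did.

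Ocln encodes occludin, the MARVEL protein that runs along the whole tight junction. Its brighter probe set, 1448873_at, read 245, 258 and 239 in Control_8, Control_1192 and Control_1193 and 65.3, 40.4 and 46.0 in Null_61, Null_1191 and Null_1195. The controls lay within a narrow band and every null was far below it, under the median of the arrays. The group means were 247 ± 9.62 and 50.6 ± 13.1 (SD, n = 3), a log2 change of -1.77 (standard error 0.14, adjusted p = 8.49e-05). Folds are left out wherever a group averages under 99.6, the highest array median. The dimmer probe set, 1440220_at, read 79.1, 68.4 and 75.4 in the controls, against 25.3, 25.6 and 49.5 in the nulls. Here too the groups did not overlap, with Null_1195 nearest to the controls. Its change was -0.72 (standard error 0.17, adjusted p = 0.0351), and this call was lost without Control_8, Control_1192, Control_1193, Null_61 or Null_1191 (adjusted p = 0.118, 0.104, 0.117, 0.0541 and 0.128), in the 4 arrays other than Control_8 and Null_61 (0.0983) and with embryo sex as a term (0.0505). Its size depended on the pseudocount, with -1.20 at 1 (adjusted p = 0.0531) and -0.39 at 100.

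Marveld2 encodes tricellulin, which seals the corners where 3 cells meet. Its only probe set, 1426914_at, read 220, 207 and 226 in the controls, against 71.4, 52.9 and 93.3 in the nulls, in the same array order. All nulls were below the lowest control, Null_1191 farthest and Null_1195 least. The means were 217 ± 9.23 and 72.6 ± 20.2 (SD, n = 3), a log2 change of -1.27 (standard error 0.15, adjusted p = 0.00121). The change kept its direction and its call in all 16 alternatives, with adjusted p up to 0.00974. In the reference table for GRCm38.p6, Ocln and Marveld2 are neighbours on chromosome 13 with 0 other protein-coding genes between them, and Rad17, a DNA damage checkpoint gene, follows on the far side of Marveld2, its edge at the 5′ end of the Marveld2 run printed above. Rad17 read 211 ± 18.9 in the controls, against 232 ± 7.0 in the nulls (SD, n = 3), a log2 change of 0.12 with a 95% interval from -0.14 to 0.38 (adjusted p = 0.602).

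Marveld3, whose product is the third MARVEL protein of tight junctions, was dim and did not pass the test on any of its 3 probe sets. The brightest, 1444809_at, read 62.3, 62.8 and 97.3 in the controls, against 78.8, 147 and 146 in the nulls. Null_61 lay among the controls and the other nulls above them. The log2 change was 0.54 with a 95% interval from 0.047 to 1.03 (adjusted p = 0.195). Without Null_61 it was 0.77 and called (adjusted p = 0.0229), and it was also called in the 4 arrays other than Control_8 and Null_61 (0.69, adjusted p = 0.0422), with the title number run as a term (0.0475) and with array weights (0.0435). Over all probe sets, 1143 to 1865 rose in these fits, against 658 in the fit reported. The other Marveld3 probe sets had means of 17.7 and 21.1 in the controls, against 33.5 and 20.9 in the nulls, below the array medians in every array, and log2 changes of 0.42 and -0.030. Signal this low limits what difference could be seen.

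F11r encodes junctional adhesion molecule A, an immunoglobulin-type protein that binds the Par complex and is also made by endothelial cells and platelets. Its brighter probe set, 1424595_at, read 603, 784 and 754 in the controls, against 224, 282 and 336 in the nulls. The highest null was well below the lowest control, which was Control_8. The means were 714 ± 96.7 and 281 ± 56.0 (SD, n = 3), a 2.4-fold fall (log2 change -1.26, standard error 0.16, adjusted p = 0.00179). The other probe set, 1436374_x_at, whose suffix marks probes that may also bind other transcripts, read 160, 179 and 158 in the controls, against 167, 234 and 212 in the nulls. These groups overlapped, and the log2 change was 0.25 with a 95% interval from -0.069 to 0.57 (adjusted p = 0.351). The log2 ratio of the first to the second was 1.72, 1.95 and 2.05 in the controls, against 0.36, 0.24 and 0.59 in the nulls (difference -1.51, exact permutation p = 0.1, the smallest that 3 against 3 arrays allow). The probe sets thus disagreed, and with their log2 values averaged the change of F11r was -0.51 (adjusted p = 0.0461).

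Some markers of other cells that make F11r moved in the same direction as 1424595_at. Of 8 endothelial markers 3 fell, where 7.85% of all genes did. Stab2, a scavenger receptor of liver sinusoids, read 540 ± 46.9 in the controls, against 278 ± 46.4 in the nulls. Kdr, a receptor of vascular endothelial growth factor, read 376 ± 30.6 and 234 ± 38.3, and Tek, the angiopoietin receptor, 93.3 ± 11.1 and 56.1 ± 3.31 (SD, n = 3). The other 5 were not called, with log2 changes of -0.10 for Pecam1, -0.059 for Cdh5, -0.55 for Tie1, -0.49 for Lyve1 and -0.072 for Emcn. The summed intensity of all 8 was 1941 to 2218 in the controls and 1385 to 1630 in the nulls. Of 5 megakaryocyte and platelet markers 3 fell, with sums of 3827 to 4798 and 2737 to 3076. No marker of either list was at 0 in any array. Their median log2 changes were -0.50 and -0.57. Macrophage markers moved the other way, with 3 of 6 higher, where 1.56% of all genes rose, and a median log2 change of 0.57. The part of any of these cells in the F11r result was not tested.

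Tjp1 encodes ZO-1, the scaffold that binds claudins and occludin from inside the cell. Its probe set 1417749_a_at read 957, 976 and 961 in the controls, against 894, 993 and 1215 in the nulls. The controls were nearly equal, and the nulls spread on both sides of them, with Null_1195 highest. The means were 965 ± 9.80 and 1034 ± 165 (SD, n = 3), a log2 change of 0.086 with a 95% interval from -0.20 to 0.38 (adjusted p = 0.748).

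Tjp3, for the related scaffold ZO-3, was below the array medians, with 69.8, 65.8 and 50.2 in the controls, against 74.6, 51.3 and 68.3 in the nulls. The groups lay within each other, and the log2 change was 0.040 with a 95% interval from -0.30 to 0.38 (adjusted p = 0.906). Cgn encodes cingulin, which links ZO proteins to actomyosin. Its probe set 1435155_at read 179, 217 and 228 in the controls, against 186, 178 and 219 in the nulls, again with overlap, and its log2 change was -0.084 with a 95% interval from -0.39 to 0.22 (adjusted p = 0.766). The other Cgn probe set, 1430329_at, ran from -0.325 to 62.4 over the 6 arrays and carried little signal. The intervals of Tjp1 and Cgn 1435155_at do not reach the -1.77 of Ocln 1448873_at, and they do not show that the levels were equal. Tjp3 was too dim for its interval to be read this way, since little room is left below its signal on a scale with 32 added.

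Pard3 encodes the PAR-3 scaffold of the apical Par complex, and none of its 4 probe sets was called. The brightest, 1434775_at, read 113, 135 and 165 in the controls, against 127, 137 and 181 in the nulls, with a log2 change of 0.087 and a 95% interval from -0.28 to 0.46. The groups overlapped. 1436764_at had a change of -0.29 (adjusted p = 0.379), with Null_61 alone well below the controls at 68.9, and 1420391_at had one of -0.030. In the dimmest, 1436765_at, all nulls (12.3 to 26.2) were below all controls (30.3 to 44.0), yet the change of -0.40 was not called (adjusted p = 0.213).

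Crb3 encodes the epithelial Crumbs protein of the apical membrane. All nulls were below all controls on each of its 3 probe sets, and the sizes differed widely. 1434851_s_at read 127, 160 and 202 in the controls, against 14.6, 6.89 and 27.3 in the nulls. Its signal went from above the array medians to near the floor in every null, and the log2 change was -2.02 (standard error 0.20, adjusted p = 0.000312). The size depends on the pseudocount, with -3.41 at 1 and -1.17 at 100. 1455115_a_at read 187, 188 and 222 in the controls, against 142, 130 and 136 in the nulls, a 1.37-fold difference (log2 change -0.45, standard error 0.12) that narrowly missed the test (adjusted p = 0.0571). It was called without Null_61 (adjusted p = 0.0478), with the title number run as a term (0.0315), with array weights (0.0246) and among brighter probe sets only (0.0315). 1424809_at read 179, 188 and 186 against 128, 164 and 140 (log2 change -0.30, adjusted p = 0.196). The log2 ratio of 1434851_s_at to 1455115_a_at was -0.47, -0.19 and -0.12 in the controls, against -1.90, -2.06 and -1.50 in the nulls (difference -1.56, exact permutation p = 0.1, the smallest possible). With the log2 values of the 3 probe sets averaged, the change of Crb3 was -0.93 (limma adjusted p = 0.000596). The suffix _s marks probes shared by several transcripts and _a those shared by transcripts of 1 gene, so which transcripts lie behind the larger fall cannot be read from these arrays.

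**Figure D2:**
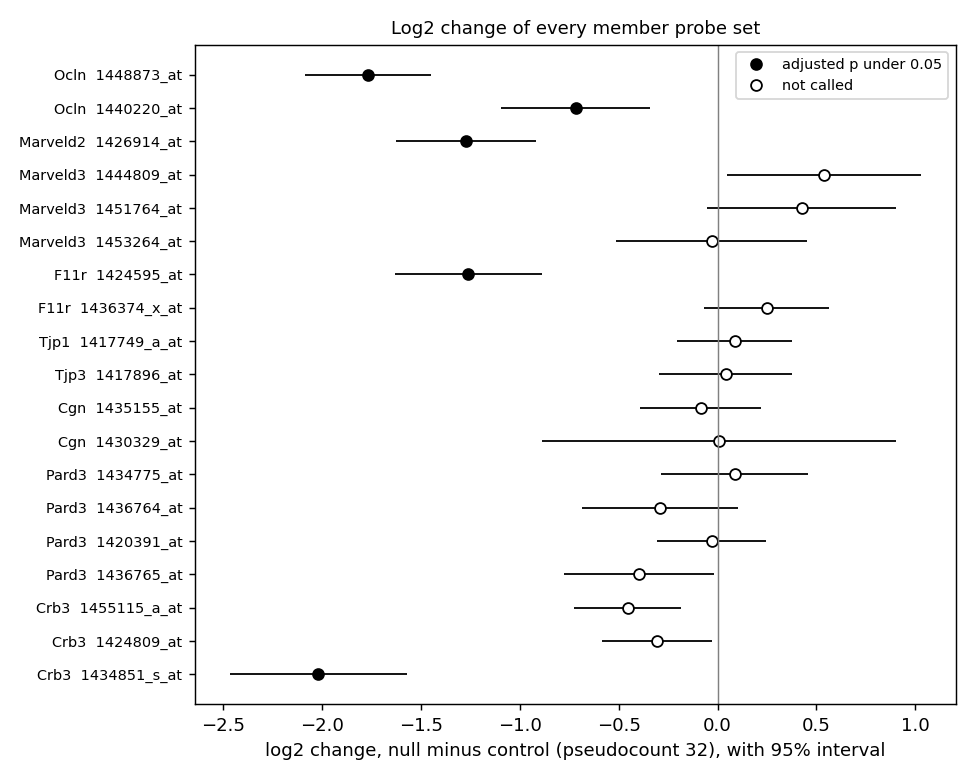
Log2 change (null minus control, pseudocount 32) of each of the 19 member probe sets with its 95% interval from limma. Filled points passed an adjusted p of 0.05. The 5 filled points lie between -2.02 and -0.72, and the scaffold probe sets of Tjp1, Tjp3 and Cgn lie about 0.

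Over all members, 8 of 19 probe sets had every null below every control, where 13.8% of all probe sets did, and 0 had every null above, where 13.6% did. The 3 beyond the 5 called ones were Crb3 1455115_a_at and 1424809_at and Pard3 1436765_at. The nulls also differed among themselves. Against the control mean, Ocln 1448873_at stood at -1.52 in Null_61, -1.95 in Null_1191 and -1.84 in Null_1195 on the log2 scale, F11r 1424595_at at -1.53, -1.24 and -1.01, and Marveld2 at -1.27, -1.55 and -0.99. The smallest fall in Marveld2 and F11r was in Null_1195, and the smallest in Ocln 1448873_at was in Null_61. Values of 3 livers allow no test of such an order. Within the 4 arrays other than Control_8 and Null_61 the log2 change was -1.90 for Ocln 1448873_at, -1.27 for Marveld2, -1.23 for F11r 1424595_at and -2.14 for Crb3 1434851_s_at, all called, and Null_61 minus Control_8, a pair with no test, gave -1.51, -1.28, -1.31 and -1.77 in the same order.

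**Figure D3:**
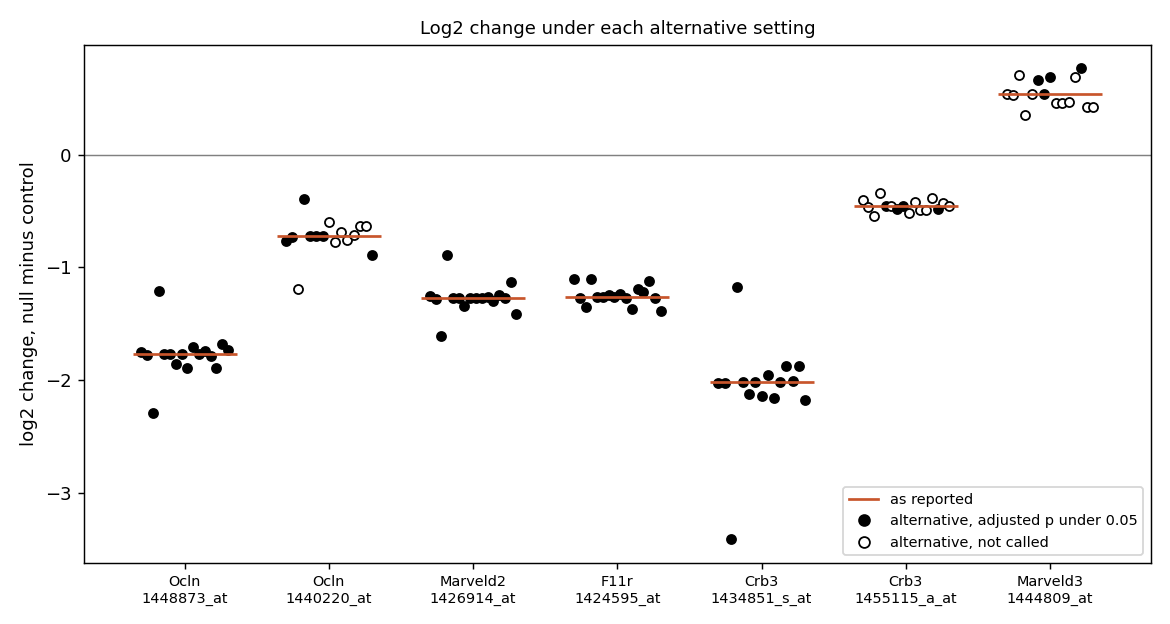
Log2 change (null minus control) of 7 member probe sets under each alternative setting, 1 point per setting. Orange lines are the reported values, filled points have an adjusted p under 0.05 and open points do not. Ocln 1448873_at, Marveld2, F11r 1424595_at and Crb3 1434851_s_at stay called throughout, and the others move across the threshold.

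The genes whose values were most like those of the called members over the 6 arrays, among 12359 genes above the median level, were Pla2g12b for Ocln (Pearson r = 0.9997), Cluh for Marveld2 (0.998) and Dvl3 for F11r (0.999). With 6 arrays in 2 groups such values are reached by picking the highest of many, and they are given as a description.

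Other genes of the junction and its polarity machinery were compared as a list of 41, of which 39 had a probe set of their own. By the brightest probe set of each, 5 fell (12.8%, against 7.85% of all genes) and 0 rose, and the median log2 change was -0.096. Over all 103 probe sets of these genes, 14 fell (13.6%, against 5.55% of all probe sets) and 0 rose, and 6 genes fell on a dimmer probe set only. Among membrane proteins, 2 of 9 fell by the brightest probe set. Lsr, whose product angulin-1 recruits tricellulin to 3-cell corners, read 344 ± 20.5 in the controls, against 187 ± 22.1 in the nulls (SD, n = 3; log2 change -0.78, adjusted p = 0.00564). The other Lsr probe set, 1447690_at, was dim, with a control mean of 27.7, and was not called (0.074). The related Ildr1 and Ildr2 were not called, with changes of -0.22 and 0.076. Igsf5, for the adhesion molecule JAM4, read 140 ± 16.9 and 81.8 ± 10.3 (log2 change -0.60, adjusted p = 0.0277). Jam2 and Jam3, the closest relatives of F11r, had changes of 0.19 and 0.22 and were not called. Marveld1, a further MARVEL protein, stood at 0.21 and was not called. Cxadr, for the coxsackievirus and adenovirus receptor, an immunoglobulin-type adhesion protein, fell on 3 of its 5 probe sets but not on the brightest, 1449949_a_at (-0.17, adjusted p = 0.708). The largest of these falls was on 1453282_at, which read 261 ± 49.5 in the controls, against 76.5 ± 12.8 in the nulls (SD, n = 3; log2 change -1.42, adjusted p = 0.000640).

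Of 12 further scaffold genes 1 fell by the brightest probe set. This was Cgnl1, for the cingulin relative paracingulin, whose brightest probe set read 261 ± 8.76 and 159 ± 3.40 (SD, n = 3; log2 change -0.62, adjusted p = 0.00909), while its 4 other probe sets were not called and had changes from -0.22 to 0.39. Mpdz and Patj, for multi-PDZ scaffolds, and Amot, for angiomotin, fell on a dimmer probe set only. The changes were -0.89 for Mpdz 1418664_at (adjusted p = 0.00748), -0.80 for Patj 1418984_at (0.0135) and -0.93 for Amot 1454890_at (0.0452), beside uncalled changes of -0.065, 0.15 and 0.14 on their brightest probe sets in the same order. Magi3, also a multi-PDZ scaffold, had an uncalled change of -0.56 (adjusted p = 0.0702). Of 18 polarity genes 2 fell by the brightest probe set. Llgl2, for a lateral determinant that opposes the Par complex, read 201 ± 17.5 and 126 ± 5.56 (log2 change -0.56, adjusted p = 0.0218). Lin7b, for a partner of the Crumbs complex protein PALS1, read 299 ± 33.7 and 185 ± 14.5 on 1439240_x_at (log2 change -0.61, adjusted p = 0.0220). Of its 3 other probe sets 1 fell, 1449172_a_at, from 298 ± 24.5 to 106 ± 7.34 (log2 change -1.25, adjusted p = 0.000258). The remaining Lin7b probe sets had uncalled changes of -0.19 and 0.032. The partners of Pard3 in the Par complex were not called on their brightest probe sets, with changes of -0.26 for Pard6a, 0.030 for Pard6b, 0.15 for Pard6g and, for the atypical protein kinases C, -0.096 for Prkci and -0.23 for Prkcz. Both kinases fell on 1 dimmer probe set, Prkci 1448695_at from 97.9 ± 17.1 to 52.3 ± 7.78 (SD, n = 3; log2 change -0.62, adjusted p = 0.0341) and Prkcz 1454902_at from 60.0 ± 7.62 to 22.7 ± 11.4 (-0.77, adjusted p = 0.0366). Mpp5, which encodes the PALS1 protein that binds the Crumbs tail, stood at -0.16. The count of 5 by brightest probe set changed with the arrays and terms used. Leaving out Control_8 gave 3 falls, Control_1192 or Control_1193 gave 1 each, Null_1191 gave 2 and Null_1195 gave 3. Leaving out Null_61 gave 6, and a term for embryo sex gave 2. Of all probe sets, 3.41% to 4.67% fell in the fits with 1 to 3 falls here, against 5.55% in the fit reported.

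**Figure D4:**
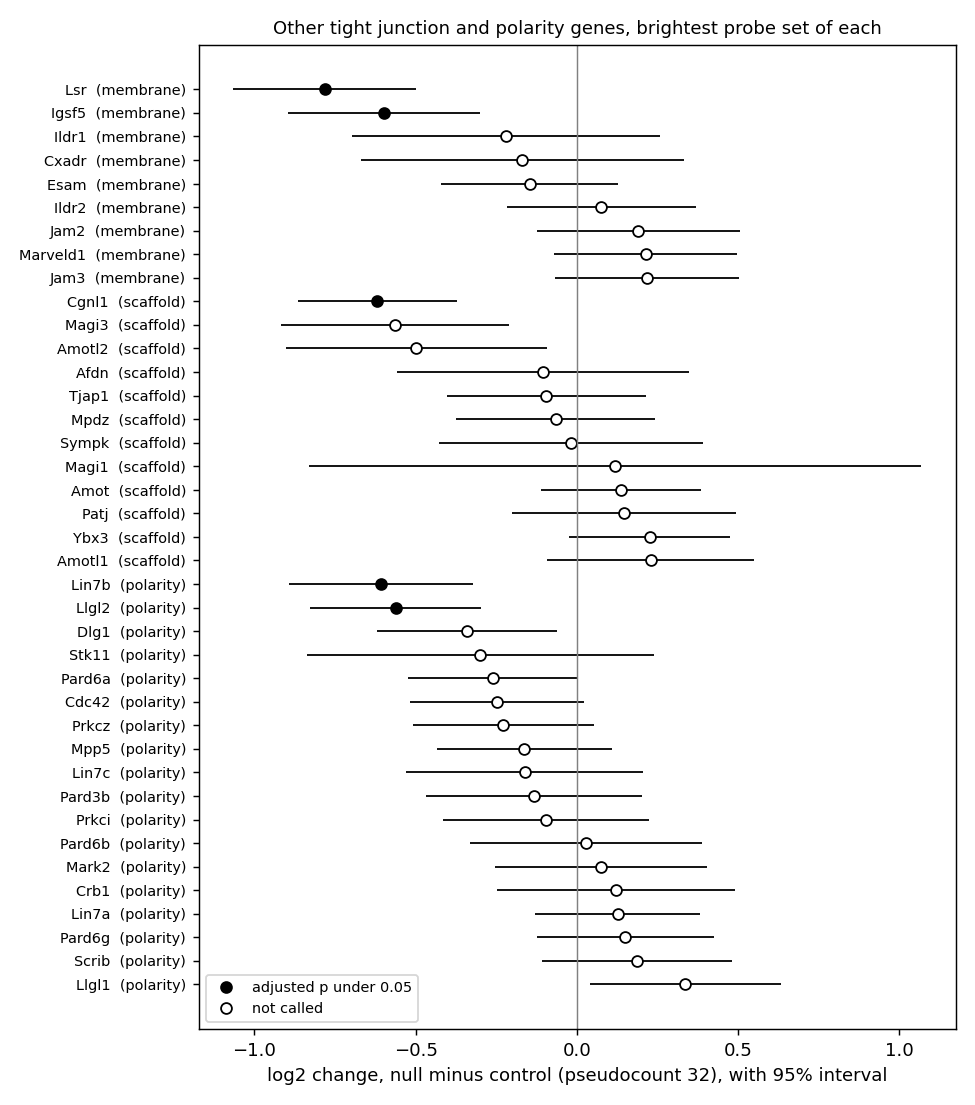
Log2 change (null minus control, pseudocount 32) with its 95% interval for the 39 other tight junction and polarity genes measured, by the brightest probe set of each, grouped into membrane, scaffold and polarity genes and sorted within each. The 5 filled points (adjusted p under 0.05) lie between -0.78 and -0.56, and most intervals cross 0.

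Of 20 measured claudins, which form the strands that occludin and tricellulin accompany, 2 fell (10%, against 7.85% of all genes), namely Cldn1 and Cldn12. Cldn1 had the larger change, -4.08 on the log2 scale (adjusted p = 2.3e-07), with 2940 ± 89.6 in the controls, against 144 ± 13.4 in the nulls (SD, n = 3). Cldn12 read 332 ± 11.6 in the controls, against 151 ± 28.7 in the nulls (SD, n = 3; log2 change -1.01, adjusted p = 0.00239), and the median over the claudins was -0.021. Markers of bile duct cells, the other tight junction-bearing epithelium of the liver, did not pass the test in any of the 4 genes measured. Their log2 changes differed in sign, with 0.21 for Krt7, -0.34 for Krt19, -0.48 for Sox9 and 0.21 for Epcam. For Sox9 every null was below every control (adjusted p = 0.0942). The summed intensities of the 4, to which Epcam gave the most, were 640 to 722 in the controls and 619 to 775 in the nulls. Of 6 macrophage markers 3 rose, where 1.56% of all genes did, and 0 of 5 erythroid and 0 of 6 mesenchymal markers were called.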

How the data were processed

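The deposited table holds 1 intensity per probe set and array on a linear scale, with some values below 0; per the labels' protocols, RNA was column-purified, biotin-labelled and hybridised by Affymetrix procedures, and how the authors summarised, background-corrected and scaled the probes is not given in these sources. Array medians differed little (at most 0.0877 on the log2 scale), so the deposited scaling was kept. Negative values were raised to 0 and log2(intensity + 32) computed. The table has 45101 probe sets, of which 64 are hybridisation controls and were dropped. Genes were named from the platform table where it gives 1 symbol.

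Null and control arrays, 3 of each, were compared by limma (version 3.58.1, R version 4.3.3; lmFit, eBayes with an intensity trend, no covariate), with Benjamini-Hochberg adjustment over 45037 probe sets. Intervals are 95% intervals of that fit, not adjusted. The fit was tested on simulated data. All probe sets of the members are reported, along with Hnf4a, up to 4 called genes with the smallest adjusted p in each list of other junction genes, and the gene most correlated with each called member; other genes, and dimmer probe sets of the other junction genes, were named after their values were seen. The members and lists were chosen with earlier results of these data known. Alternatives were other scalings, pseudocounts of 1 and 100, a filter on dim probe sets, no trend, array weights, the mean of a gene's probe sets, terms for title number run or embryo sex, 4 arrays alone, and each array left out.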

Additional observations from a re-analysis of the deposited data

How the results depend on the processing

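Each value was recomputed under every alternative that applied. Ocln 1448873_at, Marveld2 1426914_at, F11r 1424595_at and Crb3 1434851_s_at kept their direction and their call in all of them, with log2 changes from -2.29 to -1.21, -1.61 to -0.89, -1.39 to -1.10 and -3.41 to -1.17. The number of member probe sets that fell was 4 to 6 (4 to 5 with an array left out) and of member genes 3 to 4. Of all tested probe sets, 3.41% to 10% fell over these alternatives. Member probe sets that rose numbered 1 in place of 0 with array weights, with the title number run as a term and in the 4 arrays other than Control_8 and Null_61. With an array left out they numbered 0 to 1. Member genes that rose moved in the same way, and in each case this was Marveld3 1444809_at. Over all probe sets, 1558 rose with array weights, 1865 with the run term, 1143 in the 4 arrays and 1499 without Null_61. In the fit reported, 658 rose. Other tight junction and polarity genes that fell numbered 2 with embryo sex as a term and 1 to 6 with an array left out, and those that rose 0 to 1.

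Changes of sign occurred only among member probe sets that were not called. Marveld3 1453264_at was at 0.051 with array weights, 0.088 in the 4 arrays and -0.16 to 0.18 with an array left out. Tjp3 was at -0.0017 with quantile normalization, -0.027 with array weights and -0.053 to 0.14 with an array left out. Cgn 1430329_at was at -0.058 with quantile normalization, -0.0015 with centred medians, -0.82 with a pseudocount of 1, -0.062 with embryo sex as a term and -0.34 to 0.44 with an array left out. With an array left out, Tjp1 ran from -0.033 to 0.18, Pard3 1434775_at from -0.038 to 0.20 and Pard3 1420391_at from -0.086 to 0.015. The cause of these shifts was not tested. No paired analysis was possible because the groups share no replicate numbers. Precision is limited by 3 arrays a group, and the dim probe sets of Marveld3, Tjp3, Cgn and Pard3, below the array medians, could hide changes.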
